A study of Rattus norvegicus with 23 samples.

Results

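Genes of potassium channels other than the small-conductance (SK) and large-conductance (BK) calcium-activated channels were examined in the dorsal hippocampus of young and aged rats. Members are the array probe sets whose single gene symbol begins with Kcn, leaving out Kcnn1 to Kcnn4, Kcnma1, Kcnmb1 to Kcnmb4 and Kcne2. They numbered 76 of 29211 probe sets and covered 74 symbols. The filter, a signal, unlogged, of 40 or more on 4 arrays or more, was passed by 75 members and missed by Kcne3, an auxiliary subunit with signals of 26 to 42.

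Potassium channels let potassium leave the cell and so set the resting potential, repolarise the action potential and limit repetitive firing. Voltage-gated (Kv) channels open on depolarisation and work with auxiliary and electrically silent subunits, inward rectifiers (Kir) and K2P leak channels act near rest, and G protein-gated Kir (GIRK) channels carry slow inhibitory responses to transmitters. In hippocampal pyramidal cells, Kv4 channels with their KChIP partners form the A-type current of dendrites, and KCNQ channels form the M-current.

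The animals were male F344 rats, each on 1 array. Young controls (YC, n = 6) were 5 to 6 months old and are labelled sham, while the study's methods describe them as uninjected. The 3 aged groups were 21 months old and carried adeno-associated virus infused into CA1 of both hemispheres, 2 µl per side, with the transgene under a CaMKII promoter, which is active in excitatory neurons. Aged controls (AC, n = 5) received eGFP at 1.86e13 gene copies per ml. The study describes arrays of 6 rats in every group, while the values used here hold 5 for AC. The short-term (ST, n = 6) and long-term (LT, n = 6) groups received rat FKBP1b, a binding protein of ryanodine receptors, at 1.99e12 gene copies per ml. The design text places the injections at 13 months of age for AC, 19 for ST and 13 for LT, whereas the sample labels give 18, 18 and 12 months with 3, 3 and 9 months of exposure. AC against YC therefore holds age, surgery and vector together, and ST or LT against AC holds transgene and titer together. By the design text injection age and the time since injection also differ between ST and AC, and by the labels injection age and exposure differ between LT and AC. By either source injection age and exposure differ between LT and ST.

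Array medians lay between 134 and 141. The ST and LT animals had been chosen by the study for Fkbp1b above the median of their larger groups. The study measured Fkbp1b by qRT-PCR and states that this array lacks a probe set for the gene. The array's annotation, however, gives probe set 10940524 the symbol Fkbp1b. Its array signal lay between 843 and 1217 in LT and between 427 and 881 in ST, against 364 to 458 for AC and 353 to 411 for YC. AC replicates 3 and 4 and LT replicates 2 and 5 stood apart in choroid plexus genes, with list scores (mean centred log2 signal over 9 of 10 markers) of 2.79 to 3.41 against at most 0.55 on every other array, and are called the choroid-rich arrays here. AC replicate 5 stood apart in regional markers, with a CA1 pyramidal score of -0.73, a dentate granule score of -0.60, an oligodendrocyte score of -0.46 and a microglia score of 0.82. The CA1 and dentate scores rest on 3 markers each, of which Wfs1 (580), Pou3f1 (173), Prox1 (333) and C1ql2 (535) were the lowest of the 23 arrays, while Fibcd1 (905) in CA1 and Calb1 (834) in the dentate list were the highest. Its RNA integrity number was 8.9, against 9.3 to 9.8 on the other AC arrays. Since the tissue was taken whole, fewer cells of a type and less RNA per cell cannot be told apart in any value that follows.

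The first comparison asked which channel genes differ with age. In AC, 6 of 75 members were lower than in YC and 0 were higher at an adjusted p under 0.05. These were the K2P channels Kcnk18 and Kcnk13, the silent Kv subunit Kcng2, and the KChIP genes Kcnip4, Kcnip1 and Kcnip2. Over all 13339 tested probe sets 9.75% were called, 4.18% as lower and 5.56% as higher, so the 8% of members called is close to the background for calls in either direction. At an unadjusted p under 0.05, 18 members were lower and 1 was higher, or 24% and 1.33% against 13.7% and 13.7% of all tested probe sets. The median log2 fold change was -0.060 for the members and -0.0062 for all probe sets, and it lay above 0 for 19 members, or 25.3% against 47.5%. Without the 4 choroid-rich arrays, 0 members were called and 31 lay above 0. In that fit AC held 3 arrays, and 398 probe sets were called in place of 1300. Without AC replicate 5 alone, 8 members were called, of which 4 (Kcnk18, Kcnk13, Kcng2 and Kcnip4) were among the 6, 3 others were lower (Kcne5, Kcnh6 and Kcnj12) and 1 was higher, the Kv1.6 gene Kcna6 at 0.21 (adjusted p = 0.047).

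**Figure D1:**
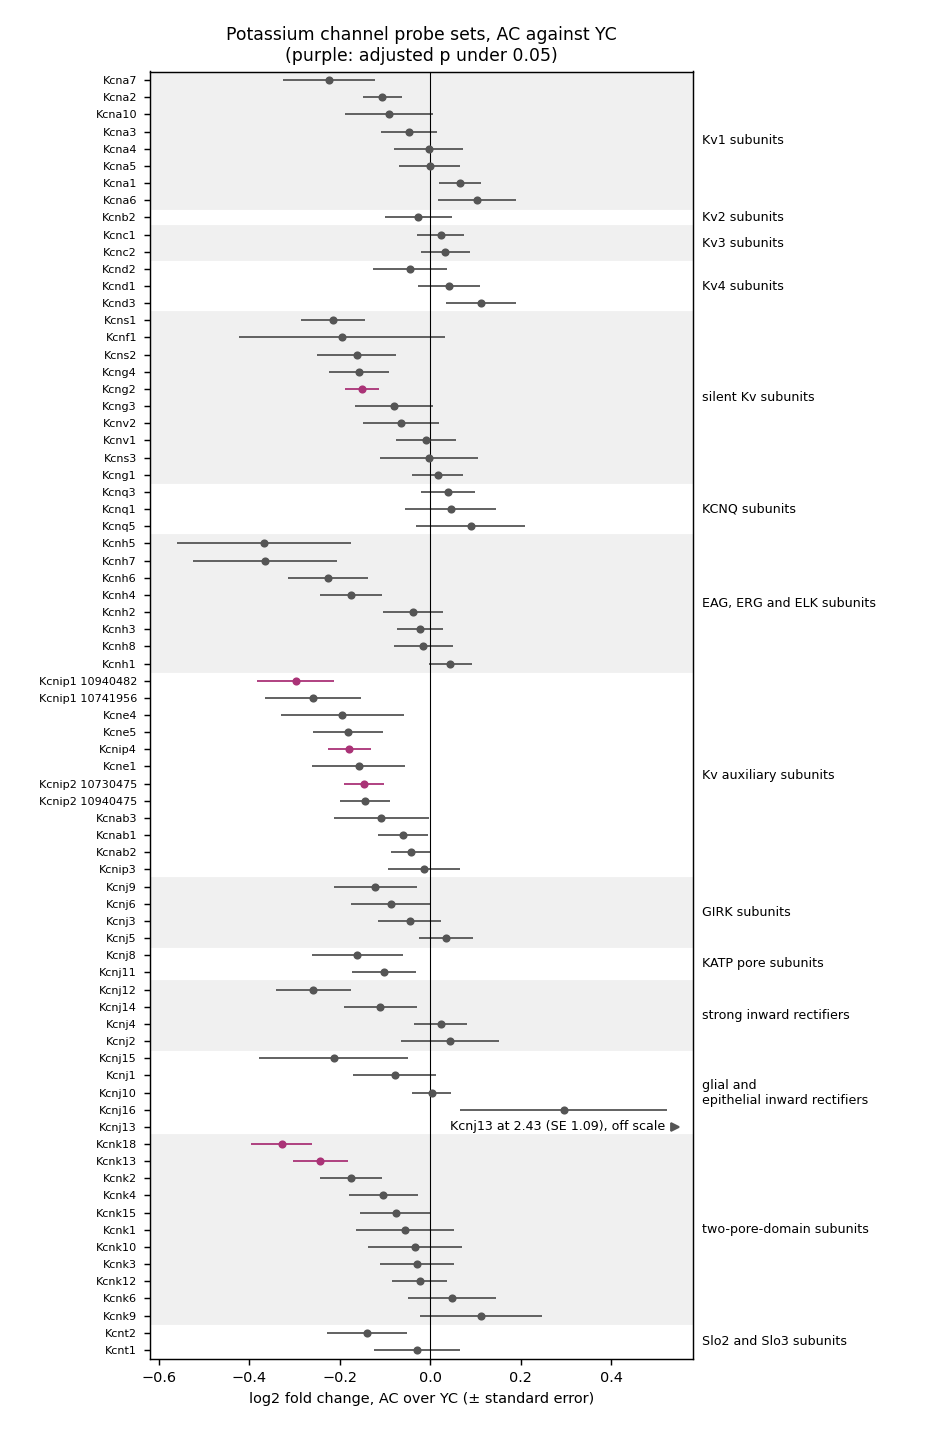
Log2 fold change of AC over YC for each of the 75 tested potassium channel probe sets, grouped by channel family, with bars of 1 standard error and the called members in purple. All 6 called members lie to the left of 0, all 12 Kv auxiliary probe sets lie to the left of 0, and Kcnj13 lies off the scale at 2.43.

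Among the K2P leak channels 2 of 11 probe sets were lower in AC, against 4.18% of all tested probe sets, and 2 of 11 fold changes lay above 0, against 47.5%. Kcnk18 encodes TRESK, a leak channel regulated by calcium through calcineurin. Its signal was 155 at the lowest, 165 at the median and 172 at the highest in YC, and 159, 120, 119, 124 and 134 on the 5 AC arrays. Only AC replicate 1 reached the YC range, and the difference was -0.33 on the log2 scale (SE 0.068, adjusted p = 0.0058), a fold of 0.797. Leaving out single arrays kept it between -0.40 and -0.30 with adjusted p values of 0.00032 to 0.021. It was -0.26 (adjusted p = 0.078) without the choroid-rich arrays.

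Kcnk13 encodes THIK-1, a leak channel known from microglia. YC arrays spanned 119 to 139 around a median of 129, and the AC arrays read 113, 106, 106, 99 and 121. The groups overlapped through AC replicate 5 alone, and AC was lower by -0.24 (SE 0.061, adjusted p = 0.017). Without AC replicate 4 the difference was -0.21 (adjusted p = 0.051), and without the choroid-rich arrays -0.19 (adjusted p = 0.14). The microglia list (7 of 8 markers tested) moved the other way, with scores of -0.38 to -0.28 in YC and -0.0048 to 0.82 in AC, and its part in this value was not tested. Kcnk2, the mechanosensitive channel TREK-1, read 180 to 193 in YC and 183, 165, 175, 159 and 141 in AC. Its difference of -0.18 (SE 0.068) had an adjusted p of 0.100. The most strongly hybridising K2P probe set, Kcnk1 (TWIK-1), differed by -0.055 (SE 0.11, adjusted p = 0.78).

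Auxiliary subunits of Kv channels set how many channels reach the membrane and how fast they inactivate. In this family 12 of 12 tested probe sets lay below 0 in AC against YC, with a median of -0.15, where 47.5% of all tested probe sets lay above 0, and 3 were called, where 4.18% of all were called lower. KChIP proteins are calcium-binding partners of Kv4. Kcnip4 spanned 1412 to 1594 in YC with a median of 1472, and read 1475, 1361, 1338, 1254 and 1144 in AC. Replicates 2 to 5 fell below the YC range, and the difference was -0.18 (SE 0.048, adjusted p = 0.022), or -0.16 (adjusted p = 0.060) without AC replicate 4.

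Kcnip2, the KChIP isoform of ventricular muscle that is also found in hippocampus, has 2 probe sets. On 10730475, YC spanned 1279 to 1430 with a median of 1360, and AC read 1373, 1218, 1223, 1241 and 1089, all but the first below YC. That probe set was lower by -0.15 (SE 0.045, adjusted p = 0.042). The other, 10940475, spanned 123 to 157 in YC and read 134, 115, 123, 110 and 122 in AC, so the groups overlapped, and its difference of -0.14 (SE 0.055, adjusted p = 0.096) was of like size and was not called.

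Kcnip1 also has 2 probe sets. The called one, 10940482, lies near the signal minimum, which 3 of 6 YC arrays and 1 of 5 AC arrays reached. It measured 39 to 48 in YC and 36, 40, 36, 36 and 25 in AC, with overlap at AC replicate 2, and differed by -0.30 (SE 0.086, adjusted p = 0.032). The brighter one, 10741956, measured 232 to 312 in YC and 217, 307, 230, 231 and 191 in AC, a difference of -0.26 (SE 0.11, adjusted p = 0.12). Kcnip1 is a gene of inhibitory interneurons among other cells, and the interneuron list (7 of 7 markers tested) scored -0.15, 0.20, -0.11, -0.20 and -0.056 on the AC arrays in the same order, highest where 10741956 was highest. Its YC scores were -0.076 to 0.21, lowest on YC replicates 1 and 4, which were also the lowest YC arrays for 10741956, at 258 and 232. The thalamus list (4 of 6 markers tested) scored -0.20 to 0.36 in YC and -0.32 to 0.23 in AC, and the part of either list in the Kcnip1 values was not tested.

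The KChIP differences were smaller without AC replicate 5, the lowest AC array for Kcnip4, for 10730475 of Kcnip2 and for both Kcnip1 probe sets. Without that array Kcnip4 kept its call at -0.13, while the Kcnip1 probe set 10940482 differed by -0.18 (adjusted p = 0.0501) and the Kcnip2 probe set 10730475 by -0.10 (adjusted p = 0.092). The Kcnip1 call was also lost without YC replicate 3, 5 or 6, and the Kcnip2 call on leaving out AC replicate 2, 3 or 4 or any of YC replicates 1, 4, 5 and 6, with adjusted p values up to 0.072 and 0.088. With the choroid-rich arrays left out as well, which leaves 2 AC arrays, Kcnip4 differed by -0.065, Kcnip2 by -0.069 and Kcnip1 by -0.15, with adjusted p values of 0.51, 0.50 and 0.30. Kcnk18, Kcnk13 and Kcng2 differed by -0.25, -0.23 and -0.16 in that fit, with adjusted p values of 0.17, 0.13 and 0.12. Among the other auxiliary genes Kcnab2, a redox-binding beta subunit of Kv1 channels, spanned 2807 to 3277 in YC and read 3117, 2858, 3057, 2799 and 2654 in AC. These ranges overlapped, and the difference was -0.042 (SE 0.044, adjusted p = 0.57).

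**Figure D2:**
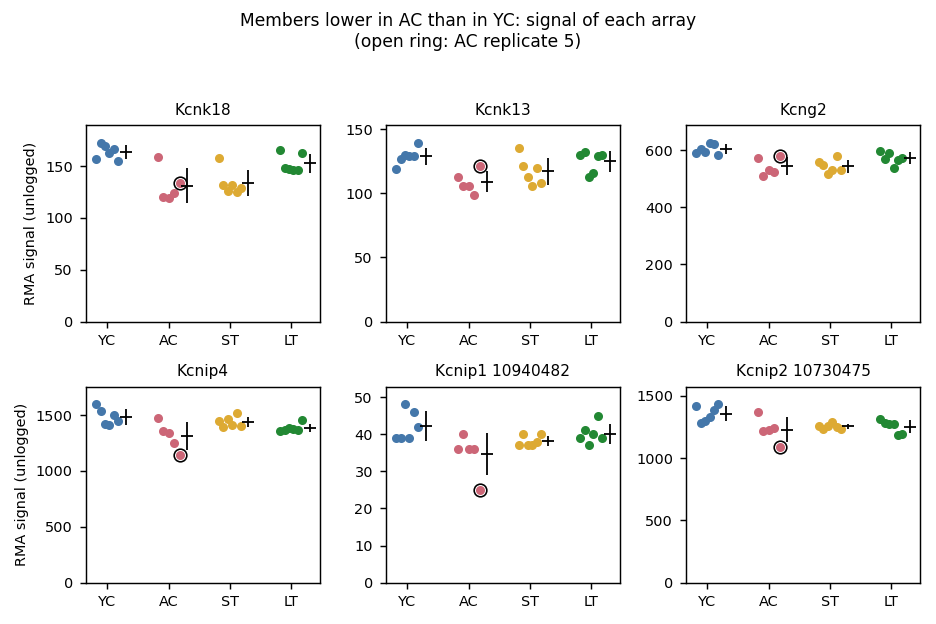
Unlogged signal of each array for the 6 members that were lower in AC than in YC, by group, with the group mean and SD as a bar beside the points and AC replicate 5 ringed. AC replicate 5 is the lowest AC array for the 3 KChIP probe sets (1144, 25 and 1089) and the highest or next to highest for Kcnk13 (121), Kcng2 (580) and Kcnk18 (134).

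Kcnk18 and Kcnip1 had the largest fold changes among the called members, and their promoter sequences are shown for that reason. Each is the 250 bases before a RefSeq start on the GRCr8 assembly, written on the gene's strand from 5′ to 3′ with CG dinucleotides in capitals, for Kcnk18 chr1:268360488-268360737 (plus strand) and for Kcnip1 the more upstream of its starts, chr10:19093026-19093275 (minus strand).
Kcnk18: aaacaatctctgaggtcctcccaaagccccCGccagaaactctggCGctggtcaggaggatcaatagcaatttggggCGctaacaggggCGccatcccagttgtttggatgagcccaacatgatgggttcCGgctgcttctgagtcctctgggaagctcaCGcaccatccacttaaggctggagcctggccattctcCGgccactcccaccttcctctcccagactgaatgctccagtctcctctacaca
Kcnip1: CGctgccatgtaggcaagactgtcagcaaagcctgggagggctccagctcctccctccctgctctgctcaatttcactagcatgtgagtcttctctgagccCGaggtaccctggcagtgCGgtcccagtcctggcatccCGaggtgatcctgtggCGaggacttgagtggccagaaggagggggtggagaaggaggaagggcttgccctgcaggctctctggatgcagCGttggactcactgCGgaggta
Each window shown holds 7 CG dinucleotides and neither holds GGGCGG (the GC box), TGACG (the core of the cAMP response element) or TATAAA (the TATA box) on either strand. The Kcnip1 window not shown, chr10:18940810-18941059 (minus strand), holds 13 CG dinucleotides, 67.6% G and C, and 1 GGGCGG. Across the 58 windows matched to 52 of the 74 member symbols, the median was 11.5 CG dinucleotides and 59.6% G and C, against 5 and 51.2% over 33469 windows of all genes. GGGCGG was in 50% of member windows and 30.5% of all, TGACG in 20.7% and 18.2%, and TATAAA in 3.45% and 12.9%. These are matches of letters and no more.

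Silent Kv subunits form no channel alone and alter Kv2 channels when they assemble with them. In AC against YC 1 of 10 lay above 0, against 47.5% of all tested probe sets, the median was -0.12, and 1 of 10, Kcng2 (Kv6.2), was called, against 4.18% called lower. Kcng2 spanned 583 to 624 in YC with a median of 599.5, and AC read 574, 508, 532, 525 and 580, wholly below YC. The difference was -0.15 (SE 0.038, adjusted p = 0.018) and held its call without each single array in turn, between -0.17 and -0.13. Kcng1 (Kv6.1), the most strongly hybridising silent subunit, spanned 651 to 767 in YC and read 637, 701, 699, 687 and 849 in AC, a difference of 0.016 (SE 0.056, adjusted p = 0.88).

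Kcns1 (Kv9.1), of the same family, spanned 131 to 161 in YC and read 128, 119, 122, 125 and 127 in AC. These groups did not overlap either, and the difference was -0.22 (SE 0.071, adjusted p = 0.058). The strong inward rectifier Kcnj12 (Kir2.2) was the remaining member without overlap, at 654 to 712 in YC and 638, 499, 504, 583 and 632 in AC. It differed by -0.26 (SE 0.083, adjusted p = 0.0503), at the edge of the threshold. All 3 members without overlap were lower in AC, which is 4% of members against 1.88% of all tested probe sets and 5.09% in either direction.

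In the Kv1 to Kv4 and KCNQ families the differences were small for the probe sets with the highest signal. Kcna1 (Kv1.1), an axonal channel, spanned 1063 to 1137 in YC and read 1206, 1193, 1298, 1081 and 1035 in AC, a difference of 0.066 (SE 0.047, adjusted p = 0.39). Kcnd2 (Kv4.2), the A-type channel of pyramidal dendrites, spanned 2396 to 2722 in YC and read 2917, 2550, 2599, 2484 and 1813 in AC. The AC values fell on both sides of YC, and the difference was -0.045 (SE 0.082, adjusted p = 0.76).

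Fast-spiking interneurons rely on Kv3 channels, of which Kcnc1 (Kv3.1) differed by 0.023 (SE 0.052, adjusted p = 0.81). For the delayed rectifier Kcnb2 (Kv2.2) the difference was -0.027 (SE 0.074, adjusted p = 0.85). For Kcnq3 (Kv7.3), an M-channel subunit, it was 0.039 (SE 0.061, adjusted p = 0.71). No member of the Kv1, Kv2, Kv3, Kv4 or KCNQ families was called in AC against YC, and 2 of their 17 tested probe sets, Kcna2 at -0.11 and Kcna7 at -0.22, had an unadjusted p under 0.05. The ether-à-go-go family (Kv10 to Kv12) lay lower, with 7 of 8 probe sets below 0, a median of -0.11 and 3 of 8 (Kcnh4, Kcnh6 and Kcnh7) lower at an unadjusted p under 0.05, though 0 were called.

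Among Kir channels, Kcnj12 is given above and Kcnj13 (2.43, unadjusted p = 0.037) with the choroid plexus values, and both KATP pore genes lay below 0. Kcnj3 (GIRK1), the shared subunit of neuronal GIRK channels, has 1 blank value in YC, where the other 5 arrays spanned 2219 to 2254. Its AC values of 2556, 2194, 2189, 2248 and 1739 lay on both sides, and the difference was -0.046 (SE 0.070, adjusted p = 0.71). Kcnj10 (Kir4.1), the potassium-buffering channel of astrocytes, spanned 743 to 812 in YC and read 806, 825, 766, 726 and 825 in AC, a difference of 0.0032 (SE 0.043, adjusted p = 0.97). Kcnj8 (Kir6.1), a KATP pore subunit of vascular cells, differed by -0.16 (SE 0.100, adjusted p = 0.31), and Kcnj11 (Kir6.2), its counterpart in neurons, by -0.10 (SE 0.071, adjusted p = 0.37). Kcnt2 (Slick), a sodium-activated channel, differed by -0.14 (SE 0.088, adjusted p = 0.32).

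The AC arrays spread more widely on these genes than the other groups did. The median within-group SD on the log2 scale was 0.17 in AC and 0.097 in YC, 0.10 in ST and 0.11 in LT, and over all tested probe sets it was 0.11 in AC and 0.072 to 0.081 elsewhere. On AC replicate 5, 14 of 75 members lay over 0.5 log2 units from the mean of the other AC arrays, 9 below and 5 above. Kcnj13 is among the 9 through the high values of the choroid-rich AC replicates 3 and 4, since its 50 on replicate 5 lies between the 41 and 58 of replicates 2 and 1. That is 18.7% of members against 5.77% of all tested probe sets, 12% against 2.81% below and 6.67% against 2.95% above. On AC replicates 1 to 4, 4, 4, 3 and 3 members lay that far, where 2.23%, 2.21%, 1.36% and 1.96% of all probe sets did. By Dixon's ratio the array was far from the rest for 5 members, or 6.67% against 5.78%.

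Genes of the ether-à-go-go family, whose channels shape slow repolarisation, gave the 2 lowest values relative to the other AC arrays after Kcnj13. Kcnh7 (Kv11.3) read 990, 897, 889, 805 and 365 in AC, where YC spanned 922 to 1041, ST 835 to 1050 and LT 799 to 924. Kcnh5 (Kv10.2) read 256, 320, 247, 216 and 92 in AC against 248 to 305 in YC. AC replicate 5 lay below every other array for both, and their differences in AC against YC, -0.36 (SE 0.16, adjusted p = 0.14) and -0.37 (SE 0.19, adjusted p = 0.22), were not called.

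Further members below the other AC arrays on replicate 5 were Kcnk1, at 685 against 1132 to 1282, Kcnj6 (GIRK2), at 1073 against 1499 to 1742, and Kcnd2. Above them were Kcnj16 (Kir5.1), a partner of Kir4.1, at 580 against 179 to 288, and Kcnf1 (Kv5.1), a silent subunit, at 242 against 99 to 174. Kcnq5 (Kv7.5) read 2301 against 1164 to 1269, Kcnk9 (TASK-3) 567 against 301 to 445, and Kcnd3 (Kv4.3) 903 against 594 to 699. The CA1, dentate, oligodendrocyte and microglia scores and the integrity number of this array stand above. Its CA3 pyramidal score (4 of 4 markers tested) was 0.19 against -0.10 to 0.063 on the other AC arrays. The CA3 markers disagreed on this array. Grik4 (1135 against 801 to 970), Elavl4 (796 against 545 to 631) and Nectin3 (605 against 397 to 470) lay above the other AC arrays. Bok, at 360 against 448 to 511, lay below them. The part of these scores and of the integrity number in the channel values was not tested.

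**Figure D3:**
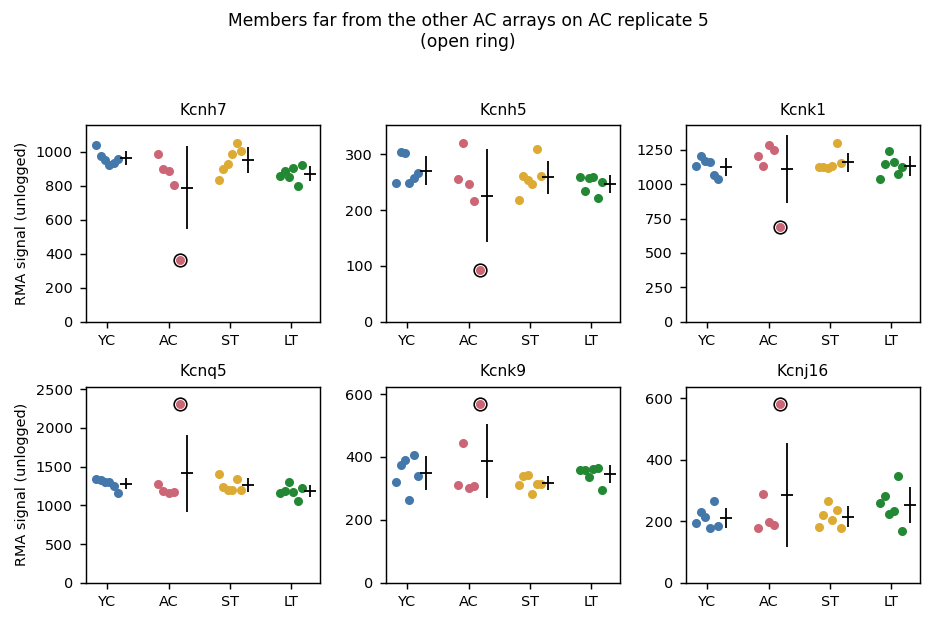
Unlogged signal of each array for 6 members on which AC replicate 5, ringed, lay far from the other AC arrays, by group, with the group mean and SD as a bar beside the points. The ringed array is the lowest of the 23 for Kcnh7 (365), Kcnh5 (92) and Kcnk1 (685) and the highest for Kcnq5 (2301), Kcnk9 (567) and Kcnj16 (580).

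Kcnj13 (Kir7.1), a channel of choroid plexus and other epithelia, had the widest range of any member. It measured 33 to 63 in YC and 20 to 42 in ST, while AC read 58, 41, 1961, 3273 and 50 and LT read 289, 2359, 49, 64, 2196 and 129. The 4 values above 1000 are on the 4 arrays with choroid plexus scores over 1, and the next highest, 289, is on the array with the next highest score, 0.55. Its differences were 2.43 (SE 1.09, adjusted p = 0.15) in AC against YC, -3.01 (SE 1.09, adjusted p = 0.40) in ST against AC and 3.30 (SE 1.04, adjusted p = 0.22) in LT against ST. Without those 4 arrays AC against YC stood at 0.16.

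Kcnq1 (Kv7.1), a subunit of epithelial and cardiac channels, read 101, 126, 154, 178 and 131 in AC, highest on the same AC replicates 3 and 4. ST spanned 100 to 121, and ST against AC was -0.28 (SE 0.10, adjusted p = 0.39), or -0.090 without the 4 arrays. The sign of Kcnq1 in AC against YC, 0.045 (SE 0.10, adjusted p = 0.81), turned to -0.15 without them.

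**Figure D4:**
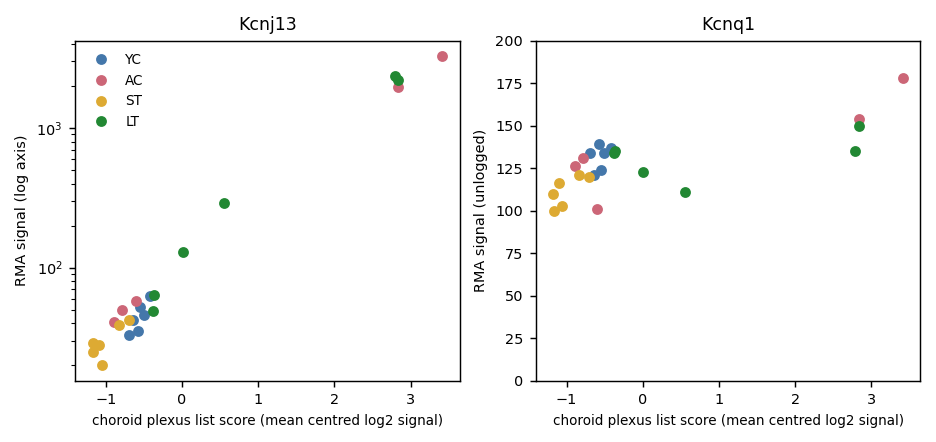
Signal of Kcnj13 (log axis) and Kcnq1 (linear axis) on each of the 23 arrays against the array's choroid plexus list score, coloured by group. The 4 arrays with scores from 2.79 to 3.41 carry Kcnj13 signals from 1961 to 3273, and all others lie at 289 or below.

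The next comparisons asked which channel genes differ after FKBP1b. In ST against AC 0 of 75 members were called by limma and 0 by the methods' analysis of variance with Fisher's least significant difference, and limma called 0% of all tested probe sets. At an unadjusted p under 0.05, 5 members were higher and 2 lower, against 4.91% and 4.91% of all probe sets (9.33% in all against 9.82%). Arrays failed to overlap for 0 members, against 0.51%. Fold changes lay above 0 for 58 members, or 77.3% against 56.7%, with a median of 0.055 against 0.0100. That median was -0.0060, with 34 members above 0, without the choroid-rich arrays and AC replicate 5, a fit with 2 AC arrays.

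In LT against AC 0 members were called by either test, against 0.075% of all probe sets by limma. At an unadjusted p under 0.05, 8 members were higher and 1 lower, against 6.03% and 6.59% of all probe sets (12% in all against 12.6%). Arrays failed to overlap for 0 members, against 1.03%. The median was 0.027 against -0.0031 over all probe sets, and 43 members, or 57.3% against 48.2%, lay above 0. It was -0.0035 in the fit with 2 AC arrays. With ST and LT averaged, 0 members were called against AC, with a background of 0.03%, the median was 0.041, and 69.3% of members against 53.2% of all probe sets lay above 0. All these comparisons share the AC arrays with AC against YC, so the level of an AC array enters them with the opposite sign.

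By member, Kcnk2 had the smallest p in ST against AC and in the mean of both groups. Its signal was 165 at the lowest, 191 at the median and 213 at the highest in ST, and 167, 186 and 213 in LT, around or above the AC values of 141 to 183. Differences were 0.20 (SE 0.068, adjusted p = 0.38) for ST and 0.19 (SE 0.068, adjusted p = 0.24) for LT, and 0.11 and 0.11 in the fit with 2 AC arrays.

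For Kcnk18 the treated groups had different levels that did not pass the test. ST spanned 125 to 158 with a median of 130.5, and LT 146 to 166 with a median of 147.5, with the ST median near the AC median of 124 and the LT median between those of AC and YC. It differed by 0.031 (SE 0.068, adjusted p = 0.92) in ST against AC, by 0.23 (SE 0.068, adjusted p = 0.17) in LT against AC and by 0.19 (SE 0.064, adjusted p = 0.24) in LT against ST. Without AC replicate 1, the AC array that reached the YC range, LT against AC was 0.30 (adjusted p = 0.023). No other single array left out gave a call, with adjusted p values up to 0.30. Replicate 1 was the highest array of AC, ST and LT alike, at 159, 158 and 166, and LT replicate 1 stayed in that fit.

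Kcnk13 spanned 106 to 135 in ST and 113 to 132 in LT, with differences from AC of 0.10 (SE 0.061, adjusted p = 0.60) and 0.20 (SE 0.061, adjusted p = 0.18). For Kcns1 the ranges were 117 to 152 in ST and 121 to 168 in LT, and the differences 0.11 (SE 0.071, adjusted p = 0.63) and 0.20 (SE 0.071, adjusted p = 0.24). Kcnj12 spanned 487 to 662 in ST and 561 to 745 in LT, and differed by 0.011 (SE 0.083, adjusted p = 0.98) and 0.20 (SE 0.083, adjusted p = 0.31). Kcng2 spanned 517 to 580 in ST and 538 to 598 in LT. Its medians were 540 in ST and 571.5 in LT, against 532 in AC and 599.5 in YC. Each of these ranges overlapped the AC arrays.

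Among the KChIP genes, Kcnip4 spanned 1392 to 1516 in ST and 1357 to 1459 in LT, with differences of 0.13 (SE 0.048, adjusted p = 0.39) and 0.079 (SE 0.048, adjusted p = 0.50). On the called Kcnip1 probe set, ST spanned 37 to 40 and LT 37 to 45, with differences of 0.16 (SE 0.086, adjusted p = 0.56) and 0.23 (SE 0.086, adjusted p = 0.26). AC replicate 5 was the low AC value of both. The called Kcnip2 probe set, 10730475, spanned 1231 to 1293 in ST and 1182 to 1317 in LT, within the AC range of 1089 to 1373. Its medians were 1254 in ST and 1272 in LT, against 1223 in AC and 1360 in YC. Kcna7 (Kv1.7) read 70, 56, 59, 56 and 41 in AC and spanned 61 to 72 in LT, a difference of 0.25 (SE 0.10, adjusted p = 0.31).

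A further pair had a small p in ST alone. Kcnj9 (GIRK3) spanned 240 to 345 in ST and read 269, 259, 235, 204 and 210 in AC, a difference of 0.21 (SE 0.091, adjusted p = 0.48). Kcnh3 (Kv12.2), a channel of forebrain pyramidal cells, spanned 1005 to 1110 in ST and read 982, 976, 1043, 879 and 907 in AC, a difference of 0.13 (SE 0.050, adjusted p = 0.44). Both groups of values overlapped.

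**Figure D5:**
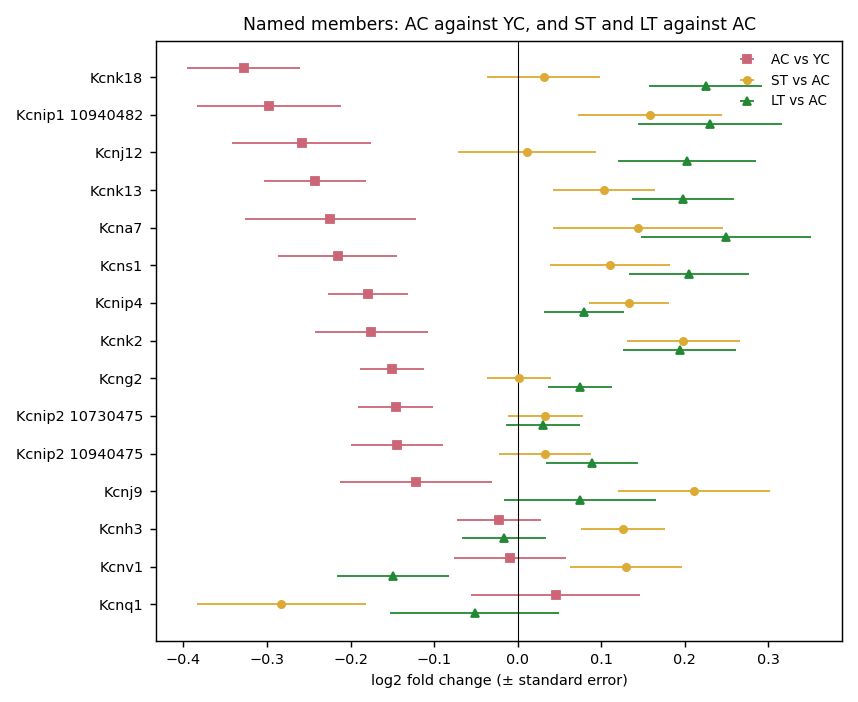
Log2 fold change with bars of 1 standard error for the members named in the comparisons, with AC against YC as squares, ST against AC as circles and LT against AC as triangles, ordered by AC against YC. Kcnk18 stands at 0.031 in ST and 0.23 in LT, Kcnj12 at 0.011 and 0.20, and Kcnk2 at 0.20 and 0.19.

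LT against ST tests whether the effects against AC differ. Of the members 0 were called, against 0.0075% of all tested probe sets, and 10 had an unadjusted p under 0.05, or 13.3% against 12.4%. Kcnv1 (Kv8.1), a silent subunit, had the smallest p. It measured 419 at the lowest, 454 at the median and 506 at the highest in ST, and 323, 394.5 and 403 in LT. The groups did not overlap, as was the case for 3 members (4% against 1.5%), and the difference was -0.28 (SE 0.064, adjusted p = 0.13). Kcnh3 was lower in LT by -0.14 (SE 0.048, adjusted p = 0.24).

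Against YC, 2 members were lower in ST, 2.67% against a background of 4.15% called and 1.44% called lower. Arrays failed to overlap for Kcng2 and, in the other direction, Kcnj3 (2.67% against 4.72%). The Kcnj3 range in YC rests on 5 arrays, since 1 value is blank. The study set values over 2 SD from a group mean to missing, and whether this blank is such a value was not tested. Kcnk18 differed by -0.30 (SE 0.064, adjusted p = 0.012). Kcng2 spanned 517 to 580 in ST, wholly below YC, and differed by -0.15 (SE 0.036, adjusted p = 0.023), a call lost without any 1 of 6 single arrays (YC replicates 2, 4 and 5 and ST replicates 3, 4 and 6), with adjusted p values of 0.051 to 0.059. In LT 0 members were called, against 1.03% of all probe sets, and 24% lay above 0, against 43.9%. Kcnk18 there differed from YC by -0.10 (SE 0.064, adjusted p = 0.51) and Kcng2 by -0.076 (SE 0.036, adjusted p = 0.37). All 12 auxiliary probe sets lay below 0 in LT against YC too, with a median of -0.095, while 2 of 12 lay above 0 in ST. Across the 4 groups the F test called Kcnk18 (adjusted p = 0.011) and Kcng2 (adjusted p = 0.034), 2.67% of members against 5.46%.

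Genes that work with these channels were taken as 3 lists. Their counts of calls in AC against YC were near the background of 4.18% lower and 5.56% higher. Of 17 receptors that act on the channels, 1 was lower in AC, Sstr2, a somatostatin receptor coupled to GIRK and M-channels. It spanned 345 to 401 in YC and read 310, 375, 318, 317 and 286 in AC, a difference of -0.21 (SE 0.059, adjusted p = 0.026). Of 19 channel partners, 1 was higher in AC, Abcc9 (SUR2), the regulatory subunit that joins Kcnj8 in vascular KATP channels.

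Abcc9 spanned 131 to 144 in YC and read 130, 147, 196, 187 and 173 in AC, above YC on replicates 2 to 5, and rose by 0.28 (SE 0.077, adjusted p = 0.026). The highest AC values, 196 and 187, were on the choroid-rich AC replicates 3 and 4. The endothelial list (7 of 7 markers tested) scored -0.14 to -0.10 in YC. On the AC arrays in the same order it scored -0.034, 0.073, 0.45, 0.35 and 0.25. The pericyte and smooth muscle list (8 of 8 markers tested) scored -0.047 to 0.052 in YC. Its AC scores were -0.0082, 0.033, 0.0037, 0.0058 and 0.093. The part of either list, or of choroid plexus, in the Abcc9 value was not tested. Of the 3 hyperpolarisation-activated HCN channels 0 were called in AC against YC. Hcn4, at 103 to 128 in YC and 93 to 103 in ST, was lower in ST than in YC by -0.25 (SE 0.065, adjusted p = 0.031). That is 1 of 3 where 1.44% of all probe sets were lower. AC read 95, 116, 96, 97 and 96 for Hcn4, overlapping ST, and LT spanned 101 to 133. Dlg2 (PSD-93), a scaffold that anchors Kv1 and Kir channels, spanned 2779 to 2965 in YC and 2548 to 2726 in LT. It was lower in LT than in YC by -0.11 (SE 0.028, adjusted p = 0.049), 1 of 19 partners where 1.03% of all probe sets were called. AC read 2809, 2741, 2618, 2641 and 2844 for Dlg2, overlapping both groups.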

How the data were processed

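Dorsal hippocampal RNA of 23 rats was hybridised by the authors to whole-transcript arrays (Rat Gene 1.0 ST, Affymetrix), and the deposited values are unlogged signal per probe set from the Robust Multiarray Average algorithm (Partek and RMA, per the labels; versions not given in the sources used here). Values are rounded, and 758 are blank, 1 of them in a member. Genes were named from the array's annotation table. The log2 of the signal was fitted with limma 3.58.1 (R 4.3.3) using 1 mean for each of 4 groups over all arrays, and p values were adjusted by Benjamini-Hochberg over the 13339 named probe sets (1 symbol each) that reached 40 on 4 arrays or more. Differences are log2 fold changes on this scale, and the number of arrays limits their precision. The p values set each difference against the spread between these animals, pooled over the 4 groups. Members, families and lists were chosen with earlier results of these data known. Members named in the text were those called in any comparison, those with the smallest p (10 in AC against YC, 6 in each FKBP1b comparison, 4 in LT against ST) and the member with the highest signal in each family, and those far off on AC replicate 5, with Kcna2, Kcna6, Kcne5, Kcnh4, Kcnh6, Kcnj11, Hcn4 and Dlg2, were added after their values were seen. The fits were tested on simulated data. Alternatives covered the test, filter, scaling, moderation, covariate, block and arrays. The behavioural and protein measurements were not used here.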

Additional observations from a re-analysis of the deposited data

Results flagged for a closer look

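In 28 probe sets and 4 groups, 112 groups of values, 6 held an array far from the rest of its group by Dixon's ratio, where chance gives about 1 in 20. AC replicate 5 was low for Kcnip1 (25, probe set 10940482) and for Kcnk1 (685). ST replicate 1 was high for Kcnk18 (158), at the YC level. ST replicate 5 was high for Kcnk1 (1297), ST replicate 4 for Kcnj3 (2499) and LT replicate 6 for Kcnip4 (1459).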

How the results depend on the processing

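The 6 calls in AC against YC became 3 with array medians made equal, 2 with only the groups compared in the fit, and 0 both without the 4 choroid-rich arrays and without those and AC replicate 5 (both settings chosen after seeing the data). The other settings that kept all arrays gave 5 to 9, all lower in AC. Leaving out single arrays gave 3 (AC replicate 4) to 11 (AC replicate 1) in AC against YC, with 1 of 8 calls higher and 4 of the 6 shared without AC replicate 5, 1 to 8 in the F test, 1 to 4 in ST against YC, 0 to 1 in ST against AC (Kcnq1 at -0.39, adjusted p = 0.048) and in LT against AC, both without AC replicate 1, and 0 in LT against ST, LT against YC and the average of both FKBP1b groups against AC. The F test called 4 members with a signal minimum of 100 and 4 with the RNA integrity number as a covariate. ST against YC gave 1 with array medians made equal, 6 with only the groups compared, and 4 without the choroid-rich arrays and AC replicate 5. Among the values of named members followed over these settings, signs turned for 4. The member medians of ST and of LT against AC also turned negative without the choroid-rich arrays and AC replicate 5, as given above. In AC against YC Kcnh3 was 0.0077 without YC replicate 2, 0.0078 without AC replicate 4 and 0.013 without the choroid-rich arrays and AC replicate 5. Kcnq1 was -0.00087 without AC replicate 3, -0.053 without AC replicate 4, -0.15 without the choroid-rich arrays and -0.22 without those and AC replicate 5. In that last fit, with 2 AC arrays, Kcnj9 was 0.052 in place of -0.12, and Kcnip4 was -0.0029 when ST and LT were averaged against AC. Over single arrays left out, Kcnh3 ranged from -0.054 to 0.0078, Kcnq1 from -0.053 to 0.15 and Kcnj9 from -0.17 to -0.072 in AC against YC, and Kcnip4 from 0.057 to 0.15 in that average. The cause was not tested. Equal medians moved the median of all probe sets by 0.021 in AC against YC. With the replicate number of the labels as a block, AC against YC kept 6 calls, losing Kcnip1 (adjusted p = 0.065) and gaining Kcnj12 (adjusted p = 0.033). Of 33 same-numbered pairs of arrays 7 had a correlation of deviations over 0.1 (range -0.38 to 0.20), and 2 of 23 arrays correlated best with their own number.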
